A study of Danio rerio with 4 samples.

Results

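Hox genes encode homeodomain transcription factors that lie in clusters and give cells their position along the body axis. The genes of one end of each cluster, those of the low-numbered paralog groups, are active toward the head, and the genes of the other end toward the tail. Meis and Pbx proteins belong to the TALE class of homeodomain factors and bind DNA together with Hox proteins and with other partners. In zebrafish, Pbx proteins are needed for myocardial differentiation and outflow tract development, *hoxb5b* acts downstream of retinoic acid to limit the number of atrial cells, and *meis2b* marks a compartment of the atrium.

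All genes whose deposited symbol was that of a Hox, Meis or Pbx gene and whose mean over the 4 libraries was above 0 were taken, which gave 31 of 19661 genes: 20 Hox genes, 5 Meis genes and 6 Pbx genes. The RNA came from 48 hpf hearts of *egr3* mutants that carry the 11-bp deletion *bns577* on both chromosomes (bns577-/-) and of their wild-type siblings (bns577+/+), with 2 pools of 20 hearts per genotype. *egr3* encodes a zinc finger transcription factor, and the comparison asks how its loss alters transcription in the heart. The mutation is present in every cell of the animal, and the mRNA of all cells in a pool was read together, so that fewer cells of a type and less RNA per cell cannot be told apart. The values are normalized counts per gene, which are not divided by gene length, so that levels of different genes are not compared.

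The normalized counts of a library summed to between 9161759 and 9481943. A supplementary list of the study names the library of mutant replicate 2 as a wild type and that of wild-type replicate 2 as a mutant. Genotypes were taken from the sample labels throughout. *egr3* itself had 873 and 889 normalized counts in mutants, against 528 and 537 in wild-type siblings. Counts over the whole gene do not show whether the small deletion is present, and so they do not check the labels, while the submitters' design text states that the deletion was found in the reads of the mutant samples. Only genes whose mean reached 5 normalized counts were tested, which left 17501, and 1 of them (0.00571%) had an adjusted p under 0.05 (limma on log2 values after adding 1 to each count, Benjamini-Hochberg adjustment). For most of these genes the replicates of the mutants and those of the wild-type siblings differed in opposite directions. Of the genes tested, 42.9% were high in mutant replicate 2 and wild-type replicate 1, and 45.5% in mutant replicate 1 and wild-type replicate 2. Were the replicate 2 genotypes exchanged, this order of libraries would be the genotype contrast. Each gene therefore has little more than 1 independent measure of spread where the fit counts 2, and the p-values below are too small for that reason. The smallest p that an exact two-sided permutation test of 2 against 2 libraries allows is 0.333, so none was used for single genes. That the pools were separate samples comes from the labels.

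In the heart pools, the Hox genes that reached the detection limit were all of the low-numbered, head-side paralog groups. Which cells of the pools held these transcripts was not tested. The detection limit used was a mean of 5 normalized counts, which 17501 of all 19661 genes passed. At this limit 9 of the 20 Hox genes were detected, and all 9 belonged to paralog groups 1 to 5. These were 2 genes of group 1 (*hoxa1a* and *hoxb1b*), 2 of group 2 (*hoxa2b* and *hoxb2a*), 1 of group 3 (*hoxb3a*), 3 of group 4 (*hoxa4a*, *hoxb4a* and *hoxd4a*) and 1 of group 5 (*hoxb5a*). Groups 6, 8, 9, 10 and 11 were represented only by genes with means under 5, and groups 7, 12 and 13 by no gene with a mean above 0 among those analysed here. Groups were read from the deposited symbols. For the ID of *hoxa4a* the reference list of gene names gives HOXA3, so that its place in group 4 is uncertain, and with it the sum over groups 4 to 8, most of which is this gene. A limit of 20 left 4 Hox genes, *hoxa2b*, *hoxb2a*, *hoxb3a* and *hoxa4a*, and a limit of 1 left 18. Of the 49 protein-coding Hox symbols that RefSeq lists for zebrafish (assembly GRCz12tu, used for names only), 20 matched a gene of the table with a mean above 0.

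Summed by class, the genes of groups 1 to 3 had 1057 and 1475 normalized counts in mutants, against 1276 and 914 in wild-type siblings. The genes of groups 4 to 8 had 192 and 177 in mutants, against 165 and 176 in wild-type siblings. Those of groups 9 to 11 had 5 and 16 in mutants, against 6 and 5 in wild-type siblings. The genotypes overlapped in the first and the last class, and in the middle class both mutants exceeded both wild-type siblings by 1 count or more. All 20 Hox genes together averaged 1461 ± 293 in mutants and 1271 ± 249 in wild-type siblings (SD, n = 2 each), a difference smaller than the spread within either genotype.

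**Figure D1:**
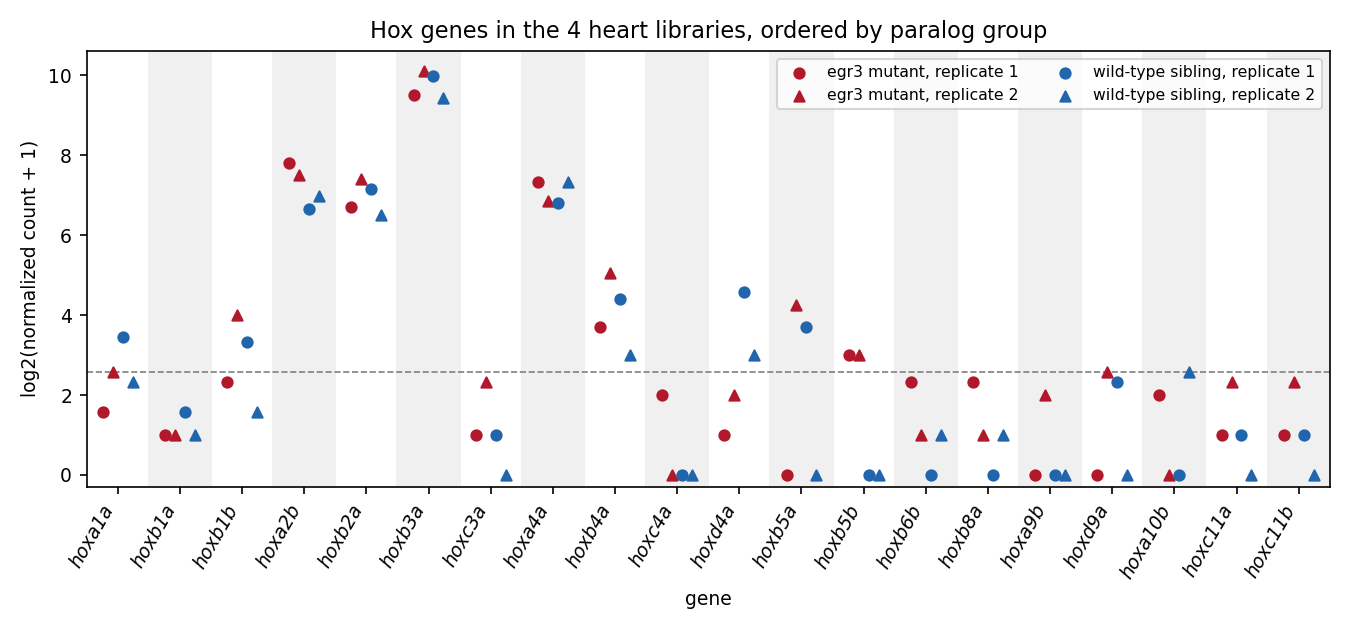
Normalized counts of the 20 Hox genes in the 4 libraries, as log2(normalized count + 1) on the y axis, with genes ordered from paralog group 1 on the left to group 11 on the right. Red marks are *egr3* mutants and blue marks wild-type siblings, circles are replicate 1 and triangles replicate 2, and the dashed line is the limit of 5 normalized counts. The 4 genes above 20 belong to groups 2, 3 and 4, and every gene from *hoxb6b* rightward has a mean under 5.

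*hoxa2b*, which specifies the identity of the second pharyngeal arch in zebrafish, had 221 and 181 normalized counts in mutants, against 99 and 126 in wild-type siblings. Both mutants lay above both wild-type siblings. The log2 fold change was 0.83 (SE 0.19, 95% interval 0.30 to 1.37), or 1.78-fold, with an adjusted p of 0.154 from limma with Benjamini-Hochberg adjustment and an unadjusted p of 0.014. The gene lies on the plus strand of chromosome 16 from 20926673 to 20929183 (danRer11, positions of the deposited annotation). Its whole span lies inside that of *tax1bp1b* (20805322 to 20932896) on the minus strand. The library kit does not mark strand, so reads of this pair cannot be told apart by strand. *tax1bp1b* had 3998 and 3969 normalized counts in mutants, against 4216 and 4397 in wild-type siblings, and so was lower in both mutants. Genotypes without overlap were found in 50.5% of all genes tested, either direction counted. The part of *tax1bp1b* reads in the value of *hoxa2b* was not tested. *hoxa9b* and *hoxa10b* overlap *tax1bp1b* in the same way, and their counts did not exceed 5 in any library.

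The direction of *hoxa2b* was the same without each library in turn, with log2 fold changes between 0.66 and 1.01. Its unadjusted limma p was 0.077 without mutant replicate 1 and 0.067 without wild-type replicate 1, and 0.036 and 0.028 without the other libraries. The limma adjusted p of *hoxa2b* stayed between 0.126 and 0.841 over all other settings of the fit.

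*hoxd4a*, a gene of the hindbrain and spinal cord, had 1 and 3 normalized counts in mutants, against 23 and 7 in wild-type siblings. The genotypes did not overlap, but the wild-type siblings differed from each other more than the lower of them differed from the mutants. The log2 fold change was -2.29 (SE 0.76, 95% interval -4.51 to -0.07; limma adjusted p = 0.224 and unadjusted p = 0.046). It was lower in mutants under every other setting that tested it, between -3.08 and -1.40, and the unadjusted limma p was 0.171 without mutant replicate 1, 0.076 without mutant replicate 2 and 0.160 without wild-type replicate 1, the library with 23. It was also above 0.05, at up to 0.063, with a pseudocount of 5, without the variance trend, with either other scaling and with every gene above 0 tested. The gene lies on chromosome 9 from 1948465 to 1951144. *hoxd4a* reached the limit of 5 only through the wild-type siblings, in which it is high, so that its test and its count among the members below rest on that filter. At these counts a few reads decide the value, and the gene did not pass a limit of 20.

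*hoxb3a*, expressed in the posterior hindbrain, had 725 and 1102 normalized counts in mutants, against 1014 and 691 in wild-type siblings. *hoxb2a*, a neighbor of the same cluster, had 103 and 167 in mutants, against 141 and 90 in wild-type siblings. *hoxa4a* had 161 and 115 in mutants, against 110 and 160 in wild-type siblings. In all 3 genes each genotype had a high and a low library, and the ranges overlapped. The 95% interval of the log2 fold change ran from -0.81 to 1.00 for *hoxb3a* and from -0.84 to 1.28 for *hoxb2a*. For *hoxa4a* it ran from -0.79 to 0.86. Differences within these intervals are not excluded by the values of the 4 libraries. The intervals are too narrow for the reason given above for the p-values.

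The annotated span of *hoxb3a* (chromosome 3, 23697997 to 23771945, plus strand) contains 4 other members, *hoxb1a*, *hoxb2a*, *hoxb4a* and *hoxb5a*. Reads that fall on exons of several genes are assigned to none by the counting described for these files, so that the values of these 5 genes are uncertain where exons are shared. *hoxb4a* had 12 and 32 normalized counts in mutants, against 20 and 7 in wild-type siblings. *hoxb5a* had 0 and 18 in mutants, against 12 and 0 in wild-type siblings. *hoxb2a*, *hoxb3a*, *hoxb4a* and *hoxb5a* were thus all high in mutant replicate 2 and wild-type replicate 1.

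**Figure D2:**
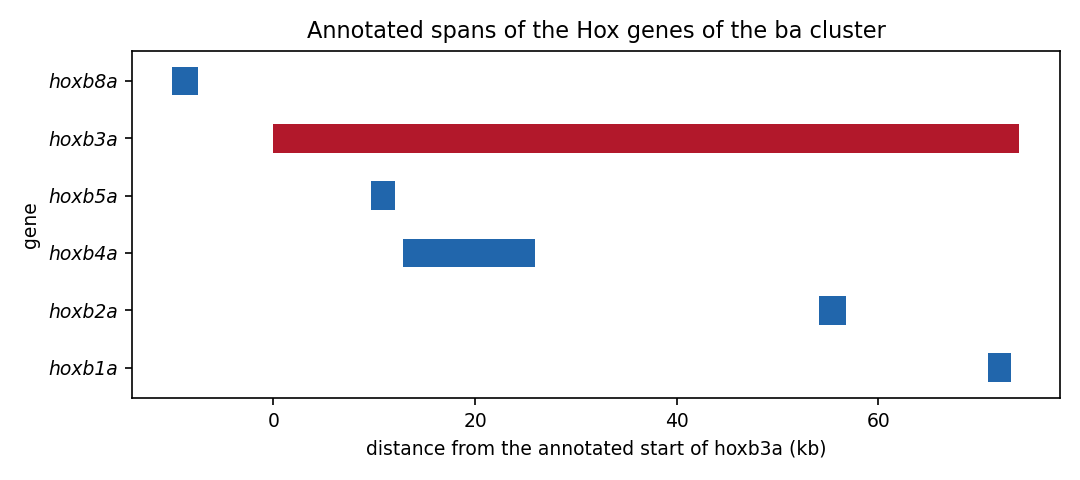
Annotated spans of the 6 members of the hoxba cluster, in kb from the annotated start of *hoxb3a* on the x axis, with *hoxb3a* in red and the other genes in blue. The bars of *hoxb5a*, *hoxb4a*, *hoxb2a* and *hoxb1a* all lie within the span of *hoxb3a*, and *hoxb8a* lies outside it.

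The same order of libraries was found in 7 of the 9 Hox genes tested (77.8%), against 42.9% of all genes tested. The 7 are not independent, as *hoxb2a*, *hoxb4a* and *hoxb5a* lie inside the span of *hoxb3a*. All of the 7 except *hoxb2a* and *hoxb3a* had means under 20. *hoxd4a*, with the values given above, was among them. *hoxb1b*, which patterns the hindbrain, had 4 and 15 normalized counts in mutants, against 9 and 2 in wild-type siblings. *hoxa1a* had 2 and 5 in mutants, against 10 and 4 in wild-type siblings, and reached the limit of 5 only through the wild-type siblings. *hoxa2b* and *hoxa4a* had the opposite order. The sums of several marker lists had the same order of libraries, as 42.9% of the single genes tested had. Among them, the summed normalized counts of 5 liver and gut markers were 194 and 380 in mutants, against 235 and 215 in wild-type siblings. This order was that of *tfa*, with 145 and 343 in mutants, against 178 and 77 in wild-type siblings. No other marker of that list had it. In 3 of the 5 both mutants lay below both wild-type siblings. Some of these, *cdx1b* among them, reached the limit of 5 only through the wild-type siblings, in which they are high. The count of 3 rests on that filter. The genotypes did not overlap in 50.5% of all genes tested, either direction counted. The summed normalized counts of 4 epicardium markers, none of them at 0 in any library, were 101 and 253 in mutants, against 248 and 103 in wild-type siblings. Those of 6 neural crest and pigment markers were 79 and 350 in mutants, against 114 and 24 in wild-type siblings, and those of 4 pronephros markers, of which *cdh17* was at 0 in 3 libraries, were 1168 and 1502 in mutants, against 1496 and 1192 in wild-type siblings. The sums of 7 endocardium markers (22346 and 24491 in mutants, against 23892 and 22592 in wild-type siblings) and of 7 pectoral fin mesenchyme markers (5548 and 6190 in mutants, against 5998 and 5576 in wild-type siblings) had this order as well. The sums of cardiomyocyte markers had the opposite order, with 19774 and 18578 in mutants, against 18779 and 20635 in wild-type siblings. Not every marker of this list had the order of the sum. *tnnt2a* had 2235 and 2247 in mutants, against 2338 and 2408 in wild-type siblings. In 6 of the 7 cardiomyocyte rows both mutants lay below both wild-type siblings, beside the same share of 50.5% over all genes. Epidermis markers had the opposite order too, with 4179 and 1263 in mutants and 3431 and 17266 in wild-type siblings, where wild-type replicate 2 stood apart. The part of these other cells in the Hox values was not tested.

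The 10 neural markers summed to 1993 and 2128 normalized counts in mutants, against 1498 and 1507 in wild-type siblings. At an unadjusted p under 0.05 in limma, 2 of the 10 were higher and none was lower. The background of such calls was 10.8% in each direction. Without overlap of the genotypes, 5 of the 10 lay above and 1 below. The genotypes did not overlap in 50.5% of all genes tested, either direction counted. The marker with the lowest p was *elavl3*, expressed in differentiating neurons, with 40 and 48 in mutants, against 13 and 11 in wild-type siblings. The markers did not all run one way: *gfap* had 10 and 5 in mutants, against 11 and 21 in wild-type siblings, and *neurod1* had 24 and 3 in mutants, against 7 and 56 in wild-type siblings. Of 5 neural crest and pigment markers tested, 1 was higher at an unadjusted p under 0.05, *sox10*, with 27 and 36 in mutants, against 2 and 1 in wild-type siblings, and the genotypes overlapped in the others. *sox10* reached the limit of 5 only through the mutants, in which it is high. No marker of either list had an adjusted p under 0.05 in limma. *hoxa2b* and other Hox genes of the head-side groups are expressed in the hindbrain and in neural crest, and the part of these cells in the value of *hoxa2b* was not tested. The defining markers of the heart were present in every library: 7 cardiomyocyte rows summed to between 18578 and 20635, and 7 endocardium markers to between 22346 and 24491.

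The other 11 Hox genes had means under 5 and were not tested at that limit. *hoxb5b* had 7 and 7 normalized counts in mutants and was listed at 0 in both wild-type siblings. It is named here after its values were seen, and no fold is given against a group listed at 0. The other 10 had between 0 and 5 normalized counts in every library, and none of them had both mutants on one side of both wild-type siblings: *hoxb1a*, *hoxc3a*, *hoxc4a*, *hoxb6b*, *hoxb8a*, *hoxa9b*, *hoxd9a*, *hoxa10b*, *hoxc11a* and *hoxc11b*. An entry of 0 at this level does not show that a gene was silent.

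All 5 Meis genes were detected, as were 17501 of all 19661 genes, and in none of the 5 did the mutants lie on one side of both wild-type siblings. *meis1b* had 3989 and 3889 normalized counts in mutants, against 3826 and 4062 in wild-type siblings. *meis1a* had 875 and 932 in mutants, against 951 and 924 in wild-type siblings. The 95% intervals of the log2 fold change were narrow, from -0.12 to 0.12 for *meis1b* and from -0.21 to 0.10 for *meis1a*. These are the zebrafish copies of Meis1, which has roles in blood and heart formation in zebrafish.

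The table gives the symbol *meis2a* to 2 gene IDs. The gene ENSDARG00000077840 on chromosome 20, named *meis2b* in the reference list of gene names and here, had 1186 and 1045 normalized counts in mutants, against 1085 and 1275 in wild-type siblings. The gene ENSDARG00000098240 on chromosome 17, called *meis2a* here, had 419 and 481 in mutants, against 452 and 407 in wild-type siblings. Genotypes overlapped in both genes, with log2 fold changes of -0.08 (95% interval -0.42 to 0.26; limma adjusted p = 0.723) for *meis2b* and 0.07 (-0.25 to 0.38; limma adjusted p = 0.749) for *meis2a*.

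*meis3*, which acts with *hoxb1b* in the zebrafish hindbrain, had 254 and 388 normalized counts in mutants, against 294 and 200 in wild-type siblings. Its replicates lay further apart than those of the other Meis genes, and its libraries were ordered as those of *hoxb3a* were. Its log2 fold change was 0.37 (SE 0.31, 95% interval -0.55 to 1.29; limma adjusted p = 0.537). The summed Meis counts were 6723 and 6735 in mutants, against 6608 and 6868 in wild-type siblings, so that the mutants lay between the wild-type siblings.

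**Figure D3:**
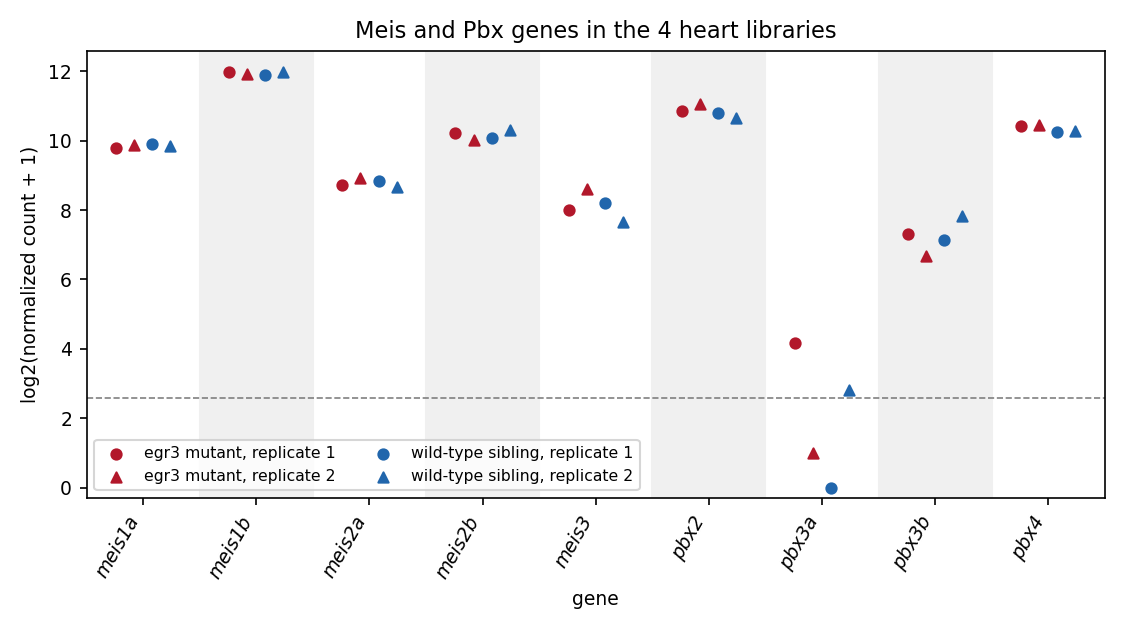
Normalized counts of the 5 Meis genes and of 4 Pbx genes in the 4 libraries, as log2(normalized count + 1) on the y axis. Red marks are *egr3* mutants and blue marks wild-type siblings, circles are replicate 1 and triangles replicate 2, and the dashed line is the limit of 5 normalized counts. Of these, only *pbx3a* has libraries below the limit, and *pbx2* and *pbx4* have both mutants above both wild-type siblings.

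Among the Pbx genes, *pbx4* and *pbx2*, the pair whose joint loss disturbs myocardial differentiation in zebrafish, had higher counts in both mutants. *pbx4* had 1365 and 1387 normalized counts in mutants, against 1224 and 1247 in wild-type siblings. Its replicates lay close together, and the difference was small, with a log2 fold change of 0.16 (SE 0.04, 95% interval 0.05 to 0.26) or 1.11-fold. The limma adjusted p was 0.159 and the unadjusted p 0.016, and over the other settings of the fit the adjusted p ranged between 0.0944 and 0.841. Without mutant replicate 1, mutant replicate 2 or wild-type replicate 1 the unadjusted p was 0.086, 0.114 and 0.068, and without the variance trend it was 0.070. *pbx4* lies on chromosome 3 from 52999962 to 53076469.

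*pbx2* (chromosome 16, 48616220 to 48643191) had 1853 and 2126 normalized counts in mutants, against 1790 and 1615 in wild-type siblings. Mutant replicate 1 exceeded the higher wild-type sibling by less than the replicates of either genotype differed. The log2 fold change was 0.22 (SE 0.10, 95% interval -0.06 to 0.51; limma adjusted p = 0.296). Summed over the 6 genes, the Pbx counts were 3902 and 4090 in mutants, against 3646 and 3643 in wild-type siblings, where *pbx2* and *pbx4* make up most of the sum.

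*pbx3b* had 159 and 102 normalized counts in mutants, against 140 and 225 in wild-type siblings, and the genotypes overlapped. Its log2 fold change was -0.48 (SE 0.36, 95% interval -1.52 to 0.57; limma adjusted p = 0.491). *pbx3b* lies on chromosome 8, as *egr3* does, at a distance of 16.7 Mb. *pbx3a* had 17 and 1 in mutants, against 0 and 6 in wild-type siblings, and its interval of -3.56 to 5.92 on the log2 scale leaves its direction undetermined (limma adjusted p = 0.704). *pbx3a* reached the limit of 5 only through the mutants, and in these through replicate 1.

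Of the 31 members, 20 passed the limit of 5 and were tested, 9 Hox, 5 Meis and 6 Pbx genes. None had an adjusted p under 0.05 in limma, where the background was the 0.00571% of genes given above. At an unadjusted p under 0.05 there were 3 of 20 members (15.0%), against 21.6% of all genes tested. *hoxa2b* and *pbx4* were higher in mutants, where the background was 10.8%, and *hoxd4a* was lower, where the background was also 10.8%. The genotypes did not overlap in 4 of 20 members (20.0%), *hoxa2b*, *pbx2*, *pbx4* and *hoxd4a*, against 50.5% of all genes. In 2 of these the difference was also at least 1.5-fold, *hoxa2b* and *hoxd4a*, against a background of 12.1%. The share of members was no higher than the background under any of these rules. The median log2 fold change of the members was 0.08, against -0.00068 over all genes tested.

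**Figure D4:**
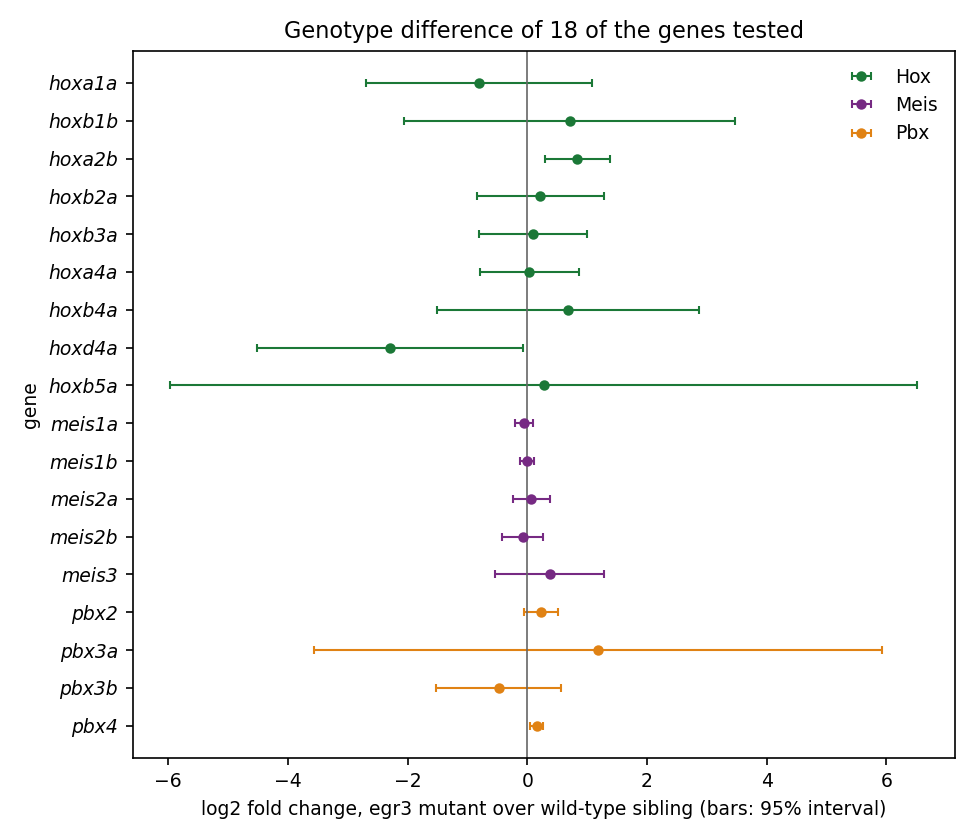
Log2 fold changes of 18 of the 20 members tested, *egr3* mutants over wild-type siblings, on the x axis, with 95% intervals from limma as bars. The intervals of *hoxa2b*, *pbx4* and *hoxd4a* lie to one side of 0, those of the Meis genes other than *meis3* lie within 0.42 of it, and *hoxb5a* and *pbx3a* have the widest.

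**Figure D5:**
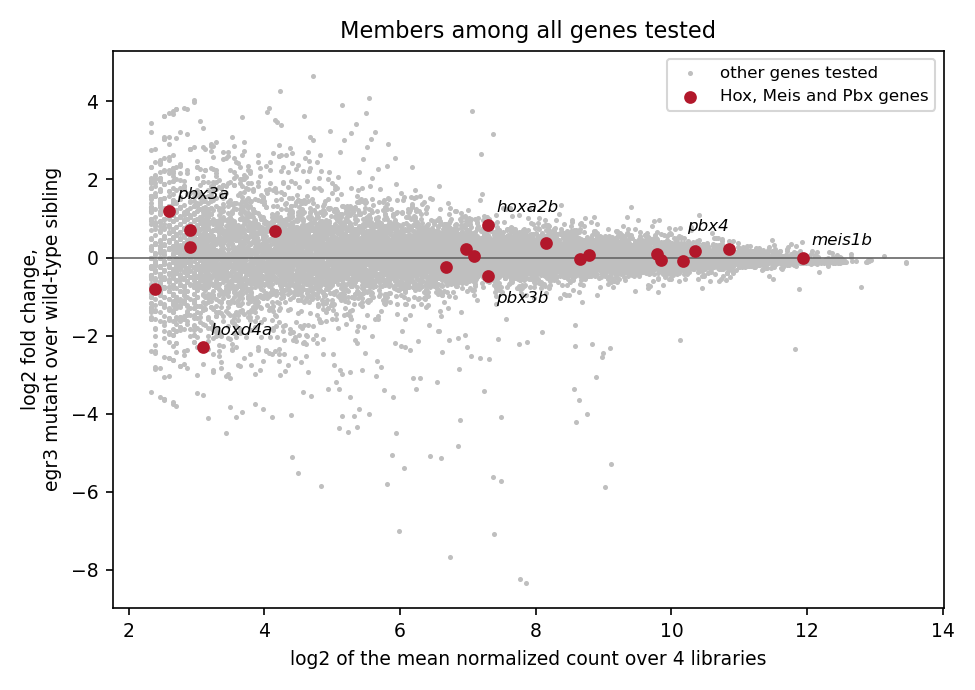
Log2 fold change, *egr3* mutants over wild-type siblings, on the y axis against the log2 of the mean normalized count on the x axis, for the 20 members in red and the other genes tested in gray. The members lie within the range of the other genes at their level, between -2.29 for *hoxd4a* and 1.18 for *pbx3a*.

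The other TALE genes and Pbx partners were described for comparison. Of 15 tested, 4 had an unadjusted p under 0.05, where the background was 21.6%: *irx5b* was higher, *irx3a*, *irx4a* and *irx1a* were lower, and none passed the adjusted threshold in limma. *irx3a* had 1975 and 2060 normalized counts in mutants, against 2366 and 2348 in wild-type siblings. *irx4a*, an Iroquois factor of ventricular cardiomyocytes, had 378 and 398 in mutants, against 470 and 462 in wild-type siblings. *irx1a* had 2060 and 2039 in mutants, against 2201 and 2302 in wild-type siblings. The 3 Iroquois genes thus had tight replicates and differences of small size. *irx5b*, with 9 and 11 in mutants against 4 and 3 in wild-type siblings, was close to the detection limit. It reached the limit of 5 only through the mutants, in which it is high. The median log2 fold change of this list was -0.10.

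Of 32 genes that act upstream of Hox expression, which include the enzymes and receptors of retinoic acid, Cdx factors, hindbrain regulators and chromatin factors, none passed the adjusted threshold in limma. At an unadjusted p under 0.05, 1 was higher and 3 were lower, which is 4 of 32 where the background was 21.6%. *rxrbb*, a retinoid X receptor, had 334 and 355 normalized counts in mutants, against 468 and 456 in wild-type siblings, and the genotypes were well apart. *rxrab* had 2 and 3 in mutants, against 10 and 6 in wild-type siblings, and *cdx1b* had 3 and 3 in mutants, against 7 and 9 in wild-type siblings. Both genes were close to the limit of 5 and reached it only through the wild-type siblings, in which they are high. Their place in the count of lower genes rests on that filter. The median log2 fold change of the list was -0.06.

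Of 11 cardiac and myogenic factors that work with Pbx, Meis or Hox proteins, *hand2*, *gata5* and *hdac1* were lower and *myod1* was higher in mutants at an unadjusted p under 0.05, which is 4 of 11 where the background was 21.6%, and none passed the adjusted threshold in limma. *hand2*, which Pbx proteins accompany in zebrafish myocardial differentiation, had 3067 and 3071 normalized counts in mutants, against 3256 and 3367 in wild-type siblings. *gata5* had 4076 and 4097 in mutants, against 4295 and 4424 in wild-type siblings. *hdac1* had 3769 and 3776 in mutants, against 3973 and 4107 in wild-type siblings. The differences in these 3 genes were small, with log2 fold changes of -0.11, -0.09 and -0.10. Shifts of this size were not particular to these factors, as the median log2 fold change was -0.09 over the 7 cardiomyocyte rows. The 7 endocardium markers had no such shift, with a median of -0.01, against -0.00068 over all genes tested. *myod1*, the skeletal muscle factor, had 98 and 135 in mutants, against 68 and 51 in wild-type siblings. It also stands in the list of 10 skeletal muscle markers. At an unadjusted p under 0.05 in limma, 4 of them were higher and 2 were lower, where the background was 10.8% in each direction. *tnnt3a*, among the higher, had 90 and 139 normalized counts in mutants, against 41 and 27 in wild-type siblings. Without overlap of the genotypes, 6 of the 10 lay above and 3 below, where 50.5% of all genes tested did not overlap, either direction counted. The 10 markers summed to 10194 and 10852 in mutants, against 9991 and 10193 in wild-type siblings. In these sums mutant replicate 1 and wild-type replicate 2 nearly coincided. Most of each sum came from the markers with the highest counts, whose differences were small, so that the sums say little of the others. The part of this tissue in the value of *myod1* was not tested. The median log2 fold change of the 11 cardiac and myogenic factors was -0.05.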

How the data were processed

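RNA of dissected zebrafish hearts was made into libraries with the SMART-Seq v4 kit, which does not mark strand. According to the submitters' processing notes and the study's methods, the authors trimmed reads with Trimmomatic 0.39, aligned them to danRer11 with STAR 2.7.10a, removed multi-mapping, duplicate (Picard 2.27.1), mitochondrial and ribosomal RNA reads, and counted the rest on exons with featureCounts 2.0.2. The values deposited by the authors are scores: counts normalized with DESeq2 1.30.1 and rounded to whole numbers, not raw counts. Removing single-end duplicates by position can compress abundant genes, and reads shared by near-identical copies are lost with the multi-mapping reads. Averaged over genotypes, the deposited values of replicates 1 and 2 nearly coincide (differing by at most 0.029 on the log2 scale, against up to 0.68 between wild-type siblings, in members with a mean of at least 20). Whether an effect of the replicate number was removed before deposit is not given in the sources used here, and it changes what the p-values measure. The depth of each library before scaling is not kept in these values, and no counting intervals are given.

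Here limma 3.58.1 (R 4.3.3; lmFit and eBayes with a variance trend) was fitted on log2(value + 1) to all 17501 genes whose mean reached 5, without a block, with Benjamini-Hochberg adjustment over all of them. Fold changes are on this scale and understate those of low genes. The fit was tested on simulated data, where 200 of 200 genes changed 4-fold were recovered among 17507 genes with 1 false call. The simulated replicates were independent, unlike those of these libraries, and only genes well above the limit of 5 were changed. The simulation therefore does not give the power or error rate of the fit for these data. Tables and plots were made with Python 3.11.15, pandas 2.3.3, numpy 2.4.6 and matplotlib 3.10.9. Some genes, members among them, are not reported here by name, but they are counted in the totals. The other members are given: Meis and Pbx genes and Hox genes with a mean of at least 20 by library, the others by library or range, with fold changes for Meis and Pbx genes and for Hox genes that did not overlap and differed at least 1.5-fold. *hoxb5b*, *hoxb4a*, *hoxb5a*, *hoxb1b*, *hoxa1a*, *tax1bp1b*, *elavl3*, *sox10*, *gfap*, *neurod1*, *tnnt3a* and *cdh17* were named with values outside this rule, after these were seen. From each other list up to 4 genes with the lowest p are named. Members, lists and markers were chosen with earlier results of these data known. The effects of 8 other settings and of leaving out single libraries are given in the closing section.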

Additional observations from a re-analysis of the deposited data

How the results depend on the processing

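Of 130 log2 fold changes of the 11 members given with one, under the other settings chosen, 120 kept their direction. The replicate block, the other limits on the mean and the fit without the variance trend leave a fold change unaltered. Values under these settings therefore kept their direction by construction. The 10 that reversed were all of small or undetermined differences: *meis1b* was 0.0189 with equal library totals and 0.0534 with quantile normalization, against -0.0013, and leaving out 1 library gave ranges of -0.0445 to 0.0419 for *meis1b*, -0.0337 to 0.165 for *meis2a*, -0.196 to 0.0371 for *meis2b* and -0.404 to 2.77 for *pbx3a*. No member had an adjusted p under 0.05 under any of these settings. Members with an unadjusted p under 0.05 numbered 3, 2 with a pseudocount of 5, with either other scaling or at a mean of at least 20, 1 without the variance trend and 0 to 3 without 1 library (0 without mutant replicate 1 or wild-type replicate 1, 1 without mutant replicate 2). With every gene above 0 tested there were 3, with *hoxb5b* in place of *hoxd4a*. *hoxb5b* passed that limit only through the mutants, in which it is high. Its rounded values had no spread within either genotype, and nothing is drawn from its call. Over all genes, 1 adjusted call became 0 when every gene with a mean above 0 was tested, 3 at a mean of at least 20, 28 without the trend and 0 without any 1 library, and 3772 unadjusted calls became 1165 to 1721 without 1 library. In each removal the lone library was assumed to vary like the other genotype. A detection limit of 1 or 20 gave 18 or 4 Hox genes, against 9.

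No source read here says that a replicate number marks a shared batch, and the values do not show whether the numbers pair the samples. Deviations of same-numbered samples were correlated at -0.99 across 17501 genes, which are not independent. With the replicate number as a block, there were 0 adjusted and 858 unadjusted calls over all genes (4.90%), and 1 unadjusted call among members, *hoxa2b*, so that the block ended those of *hoxd4a* and *pbx4*. The limma adjusted p of all 3 was 0.841 with the block. The crossed pairing, chosen after seeing the data, gave 12169 adjusted and 12503 unadjusted calls among the 17501 genes. Among the 20 members tested it gave 13 adjusted and 13 unadjusted calls. Such a block takes up the mirrored deviations that it was chosen to match. Its many calls were thus fixed in advance, and no difference between genotypes is drawn from them.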

Other observations

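Some of the low Hox genes shared exact sets of values. *hoxc3a*, *hoxc11a* and *hoxc11b*, which lie in 2 clusters, all had 1 and 4 normalized counts in mutants, against 1 and 0 in wild-type siblings. This set of values was found in 21 of the 2160 genes with a mean under 5. *hoxb6b* and *hoxb8a* both had 4 and 1 in mutants, against 0 and 1 in wild-type siblings, a set found in 17 of these genes. The values 7 and 7 in mutants, against 0 and 0 in wild-type siblings, occurred in 1 gene, *hoxb5b*. This gene was picked out after its values were seen, and low genes with a set of their own were not counted. No difference between genotypes is drawn from it.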
